A study of Homo sapiens and Mus musculus with 213 samples.

Results

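The genes described here encode the secreted and membrane-bound parts of the Wnt signaling pathway and their closest nuclear and cytoplasmic partners. They were chosen by symbol among protein-coding GENCODE genes: the WNT ligands, the Frizzled receptors (FZD), the co-receptors LRP5 and LRP6, the R-spondins (RSPO), the secreted frizzled-related proteins (SFRP), the Dickkopf antagonists (DKK), AXIN1 and AXIN2, and the transcription factors LEF1, TCF7, TCF7L1 and TCF7L2. The rule found 49 genes among the 58336 listed in the RNA-seq tables, and the rule itself used no measured value, although the gene family was proposed with earlier results of these data known.

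Wnt ligands are lipid-modified secreted proteins that bind a Frizzled receptor. When LRP5 or LRP6 joins the complex, the Axin-based destruction complex is inhibited, beta-catenin accumulates and TCF/LEF factors activate their targets. R-spondins act through LGR receptors to keep Frizzled proteins on the cell surface, whereas SFRPs sequester Wnt ligands and most Dickkopf proteins block LRP5 and LRP6. Some ligands, such as WNT5A and WNT11, are best known for beta-catenin-independent signaling. In kidney development, WNT9B, WNT4 and WNT11 are known for their parts in tubule and duct formation.

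The study edited a G-quadruplex (G4), a 4-stranded structure of stacked guanines, at the promoter of MYC in HEK293T cells, immortalized cells of human embryonic kidney origin. RNA-seq was available for 3 groups with 3 libraries each. WT cells kept the natural MYC G4 motif, MUT cells carried point mutations in the G-runs so that the motif no longer folds, and in SWP cells the motif had been exchanged for a different G4-forming sequence. The comparisons ask how the transcriptome differs when the G4 is lost and when it is replaced. The edited lines were homozygous clones grown from single sorted cells, all groups share the HEK293T background, and the labels do not say which clone gave which library. A difference between clones and a difference made by the edit therefore cannot be told apart.

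Values are read counts per gene that the authors divided by 1 size factor per library, called normalized counts below. Between 65024354 and 98497026 reads per library lay on genes. Of 58336 genes, limma tested the 20884 whose mean reached 10 normalized counts across the 9 libraries, on the scale log2(normalized count + 1), and "rose", "fell" and "called" mean an adjusted p under 0.05 with a log2 fold change beyond 0.5. The labels mark the 3 libraries of a group as biological replicates without naming the culture or clone of each, so p-values measure the spread between these libraries. With 3 libraries in each group, exact two-sided permutation of 1 gene's values cannot give p below 0.1. Groups that do not overlap are common: this held for 52.3% of all genes tested in MUT against WT. The share was 24.6% in SWP against WT and 52.3% in MUT against SWP. Of the 40 tested members, 25, 14 and 25 had no overlap in these 3 contrasts. MYC itself fell in MUT (log2 fold change -1.02, SE 0.19, adjusted p = 0.00182) and had a log2 fold change of -0.15 in SWP (adjusted p = 0.712). SWP replicate 1 lay farthest from the other libraries of its group, with a median absolute log2 difference of 0.209 over tested genes, against 0.0801 to 0.186 elsewhere. It gave the lowest SWP value for 26 of the 40 tested members. The column names of the 3 WT libraries carry a tag that those of MUT and SWP lack. The tag may mark a sequencing pool, but the pools of MUT and SWP are not given. A difference that it marks cannot be told apart from WT status. All 6 markers fixed for HEK293T (VIM, KRT8, KRT18, NEFL, NEFM and PAX2) were detected in every library. Of the 5 markers for other cells, PTPRC, DCN, PECAM1 and ALB stayed at or below 8.07 normalized counts, while COL1A1 had means of 1111 in WT, 1907 in MUT and 913 in SWP. Of these markers, COL1A1 (0.78 on the log2 scale), KRT8 (0.77), NEFL (1.07) and PAX2 (0.69) rose and NEFM (-0.58) fell in MUT, while KRT8 (-1.27) and NEFL (-0.54) fell in SWP. VIM and KRT18 were called in neither line against WT. The part of these shifts in the results below was not tested.

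Of the 49 genes, 40 were tested and 9 fell below the minimum. In MUT against WT, 12 rose and 4 fell, while 11.3% of all genes tested were called higher and 10.1% lower. In SWP against WT, 3 rose and 4 fell, beside 2.15% called higher and 2.98% lower among all genes. In the direct contrast of MUT against SWP, 10 were higher and 5 lower in MUT, beside 12.3% higher and 8.31% lower overall. The median log2 fold change of the tested members was -0.02 in MUT against WT and -0.05 in SWP against WT, next to -0.00 and -0.06 over all genes. In these bulk samples, fewer expressing cells and less RNA per cell cannot be told apart. All these contrasts share libraries and are not independent of each other. RSPO2, RSPO3, RSPO4 and WNT2 had a mean under 10 in at least 1 group and reached the minimum through the groups where they were higher. Without these 4, 9 of 36 tested members rose and 4 fell in MUT. The SWP counts depended on single libraries: the number that rose was 7 without SWP replicate 1, 4 without WT replicate 2, and 1 without SWP replicate 2, SWP replicate 3, WT replicate 1 or WT replicate 3. The number lower in MUT than in SWP was 8 without SWP replicate 1 and 3 without SWP replicate 3. When values were rescaled to equal totals, the share of all MUT calls that were higher moved from 52.8% to 64.2%.

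**Figure D1:**
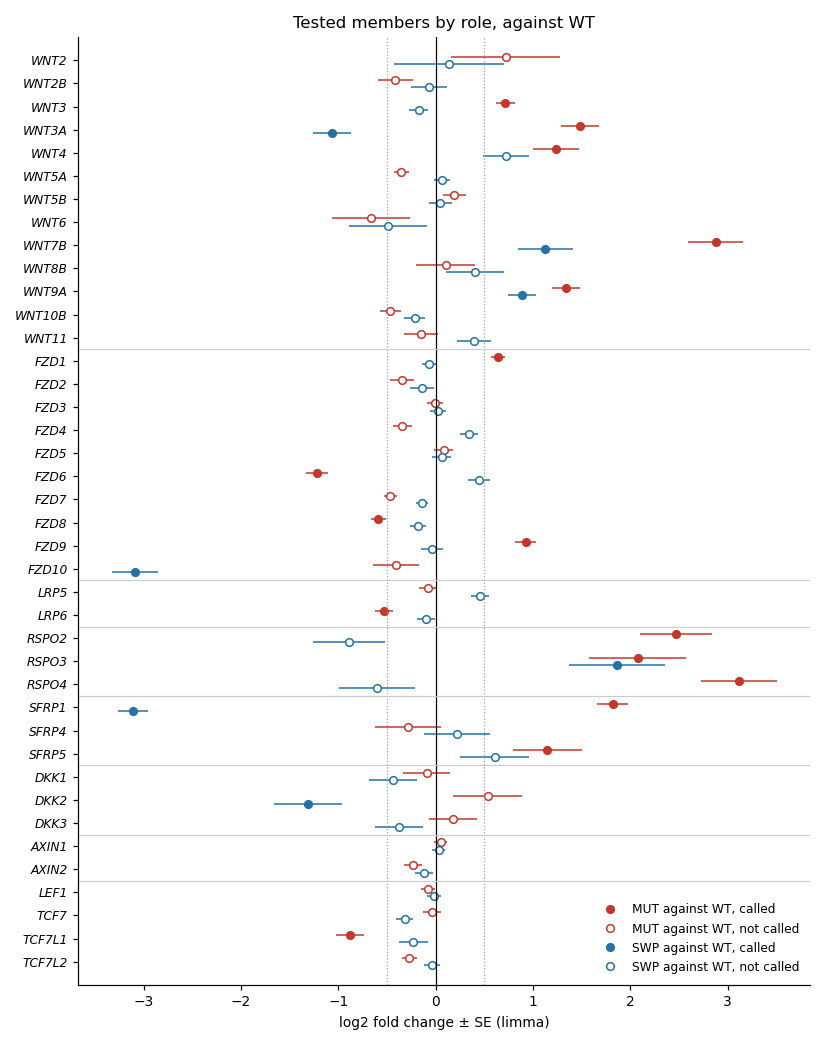
Log2 fold change with its standard error (limma) for the 40 tested members, in MUT against WT (red) and SWP against WT (blue), grouped by role from ligands at the top to TCF/LEF factors at the bottom. Filled points are called and dotted lines mark a log2 fold change of 0.5 in either direction. SFRP1 and WNT3A are the members called on opposite sides, and the Axin and most TCF/LEF points lie near 0.

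Among the 19 WNT ligands, 13 were tested. In MUT, 5 rose (WNT3, WNT3A, WNT4, WNT7B and WNT9A) and none of the 13 was called lower, although WNT5A and WNT10B passed the adjusted p within the fold threshold. That is 38.5% higher and 0% lower, beside 11.3% and 10.1% of all genes tested. With 13 genes, 0 lower lies near the share of all genes. In SWP, WNT7B and WNT9A rose and WNT3A fell (15.4% and 7.69%, beside 2.15% and 2.98% of all genes). Because levels of different genes can be compared only per length, the order of the ligands is given as normalized counts per kb of exon.

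The most abundant ligand transcripts in WT cells were WNT5A at 326 ± 8.35 per kb and WNT10B, a ligand known for restraining fat cell formation, at 326 ± 51.1 (SD, n = 3), and these levels did not differ beyond their spread. WNT11 followed at 185 ± 10.9, then WNT3 at 102 ± 5.99 and WNT5B at 98.8 ± 11.8, which also overlapped in spread. WNT3A stood at 66.7 ± 7.19 and WNT8B at 55.6 ± 17.4. WNT9A and WNT2B were at 23.8 ± 1.62 and 18.9 ± 2.42, with WNT6 between them at 23.0 ± 13.1 and a spread that covered both. WNT7B and WNT4 were lower, at 6.16 ± 1.23 and 3.43 ± 0.627. In MUT, WNT3A moved from rank 6 to rank 3 of 19 at 186 ± 5.19 per kb, and in SWP it stood at rank 8 with 32.6 ± 9.37. WNT5A and WNT10B kept ranks 1 and 2 in all 3 groups. Summed over the 19 ligands, the level was 1243 ± 41.1 per kb in WT, 1330.4 ± 54.0 in MUT and 1273 ± 111 in SWP (exact two-sided permutation p = 0.1 for MUT against WT and 0.7 for SWP against WT).

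**Figure D2:**
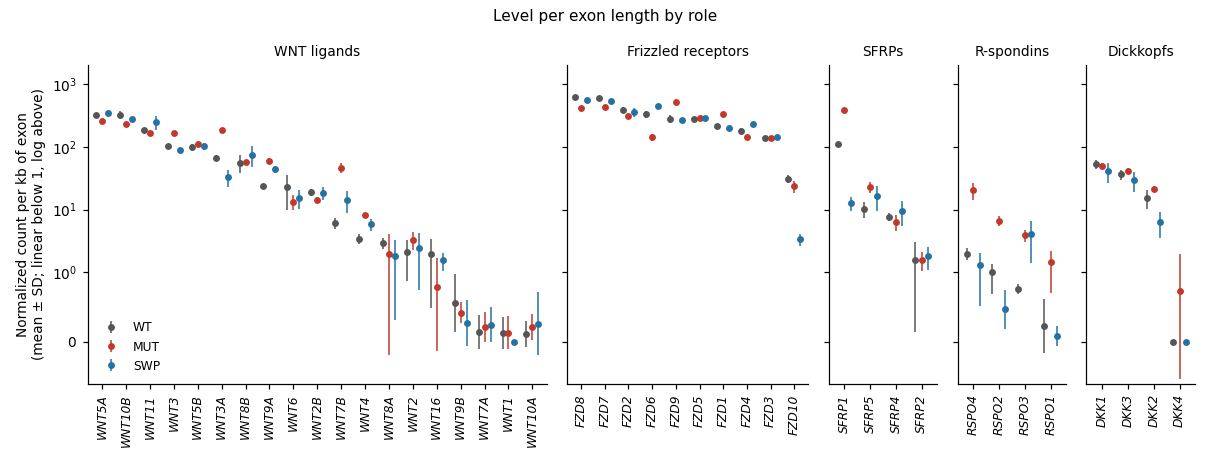
Level of each ligand, Frizzled receptor, SFRP, R-spondin and Dickkopf gene per kb of exon in WT, MUT and SWP (points are means of 3 libraries, bars are SD; the axis is linear below 1 and logarithmic above). Within each panel genes are ordered by their WT level. WNT5A and WNT10B lead the ligands in each group, and SFRP1 separates the groups most widely. FZD10 is the lowest Frizzled receptor in each group and is lower in SWP than in WT or MUT.

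WNT3A, a canonical ligand widely used to activate beta-catenin in culture, moved in opposite directions in the edited lines. Its normalized counts were 185, 224 and 191 in WT, 572, 562 and 542 in MUT and 65.3, 117 and 111 in SWP. Every MUT library lay above every WT library, and every SWP library below. It rose 2.79-fold in MUT (log2 fold change 1.48, SE 0.20, adjusted p = 0.000169) and fell to 48.8% of WT in SWP (-1.07, SE 0.20, adjusted p = 0.00541). The direct contrast of MUT against SWP gave 2.55 (SE 0.20, adjusted p = 3.01e-06).

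WNT9A, a ligand with parts in joint and blood development, lies 59.1 kb from WNT3A on chromosome 1, on the other strand. Its values were 88.2, 101 and 96.3 in WT, 217, 265 and 244 in MUT and 151, 181 and 199.5 in SWP, so both edited lines lay above WT in every library. It rose in MUT (log2 fold change 1.34, adjusted p = 4.25e-05) and in SWP (0.88, adjusted p = 0.00272). Thus the adjacent genes rose together in MUT but were called in opposite directions in SWP. MUT against SWP gave 0.45 for WNT9A (adjusted p = 0.0282), just inside the fold threshold, and 0.53 without MUT replicate 1 or 0.54 without SWP replicate 3. Over the other tested genes within 5 Mb of either gene, the median was -0.14 in MUT and -0.05 in SWP on the log2 scale.

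WNT3 and WNT9B form a similar pair on chromosome 17, where their annotated ranges are 0.047 kb apart. WNT3, a canonical ligand needed for primitive streak formation, gave 523, 585 and 538 in WT, 926, 951 and 825 in MUT and 455, 478 and 527 in SWP. It was higher in each MUT library than in any other, with a log2 fold change of 0.71 against WT (SE 0.10, adjusted p = 0.000216) and 0.89 against SWP (adjusted p = 4.25e-05). SWP and WT overlapped, with -0.17 (adjusted p = 0.319). WNT9B, its neighbor, had at most 6.73 normalized counts in any library and was not tested. The same held for 1 partner of each remaining pair: WNT1 beside WNT10B on chromosome 12 and WNT10A beside WNT6 on chromosome 2 had at most 0.974 and 2.31.

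WNT7B, a ligand known in lung and kidney epithelium, showed the largest ligand rise. It had 29.7, 38.2 and 26.0 normalized counts in WT, 189, 266 and 254 in MUT and 42.4, 95.8 and 79.6 in SWP, with no overlap between any of the groups. The log2 fold change was 2.88 in MUT (SE 0.28, adjusted p = 2.37e-05), a 7.55-fold difference of means, and 1.75 for MUT against SWP (adjusted p = 0.000616). The smaller rise in SWP (1.13, adjusted p = 0.0278) lost its call without WT replicate 1 (adjusted p = 0.0510), WT replicate 3 (0.106), SWP replicate 2 (0.0996) or SWP replicate 3 (0.0966), and in a fit of only SWP and WT (0.0799).

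WNT4, which drives the mesenchymal-to-epithelial transition of the nephron, was low in all lines. The values were 13.3, 19.1 and 15.4 in WT, 37.0, 41.8 and 37.0 in MUT and 20.6, 29.7 and 31.1 in SWP. MUT exceeded WT without overlap (log2 fold change 1.24, SE 0.24, adjusted p = 0.00183), although its 127 tested neighbors within 5 Mb had a median of -0.31. SWP libraries also all lay above WT, at 0.73 with adjusted p = 0.0794, which became 0.0381 with the replicate number as a block and 0.0363 without SWP replicate 1. MUT and SWP were not called apart (0.51, adjusted p = 0.110).

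WNT11, a beta-catenin-independent ligand expressed at ureteric bud tips, was called only in MUT against SWP. Its normalized counts were 456, 449 and 408 in WT, 346, 436 and 409 in MUT and 417, 672 and 677 in SWP, and all 3 groups overlapped. The log2 fold change of -0.54 (adjusted p = 0.0303) lost its call without MUT replicate 1 (-0.44, adjusted p = 0.116), MUT replicate 3 (adjusted p = 0.0632), SWP replicate 2 (-0.43) or SWP replicate 3 (-0.42). Without SWP replicate 1, SWP against WT was called at 0.62. The 94 tested neighbors of WNT11 had a median of 0.31 in SWP against WT.

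The remaining tested ligands were not called. WNT5A was lower in every MUT library (means 1830.3 ± 60.2 against 2335 ± 59.7, log2 fold change -0.35, adjusted p = 0.00570), and so was WNT10B (-0.46, adjusted p = 0.00551, or -0.55 and called without WT replicate 2). WNT2, WNT2B, WNT5B, WNT6 and WNT8B had adjusted p-values of 0.0926 to 0.816 in MUT against WT. WNT2B and WNT8B were called lower in MUT than in SWP only when SWP replicate 1 was left out, at -0.55 and -0.67. WNT1, WNT7A, WNT8A, WNT9B, WNT10A and WNT16 were not tested, and no library held more than 11.6 normalized counts of any of them.

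The reference sequence upstream of some called ligands is given here. The edit targeted the G4 at the MYC promoter, and whether G4 motifs at other genes have a part in their changes was not tested. The 250 bases before the RefSeq start site on GRCh38.p14 are shown for WNT3A and WNT9A, the adjacent pair with opposite calls in SWP, and for WNT4. For WNT4 these bases lie inside the GENCODE range of the gene, which extends upstream to position 22143969. Capitals mark stretches matching a G4 motif on either strand, meaning 4 runs of at least GGG separated by 1 to 7 bases. A separating base could itself be G, so 1 long run could count as 2. All are 5′ to 3′ on the strand of the gene.
WNT3A (chr1:228006748-228006997, plus strand): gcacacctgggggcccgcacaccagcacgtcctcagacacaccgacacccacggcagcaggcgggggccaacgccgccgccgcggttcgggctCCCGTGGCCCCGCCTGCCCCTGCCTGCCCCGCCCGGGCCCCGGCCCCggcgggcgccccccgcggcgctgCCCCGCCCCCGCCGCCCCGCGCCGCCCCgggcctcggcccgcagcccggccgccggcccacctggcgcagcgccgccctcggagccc
WNT9A (chr1:227947933-227948182, minus strand): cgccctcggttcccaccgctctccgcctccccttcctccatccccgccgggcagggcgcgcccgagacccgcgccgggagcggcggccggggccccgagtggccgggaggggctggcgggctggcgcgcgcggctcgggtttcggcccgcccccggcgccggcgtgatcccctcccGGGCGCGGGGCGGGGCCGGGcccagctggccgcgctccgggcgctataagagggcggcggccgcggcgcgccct
WNT4 (chr1:22143098-22143347, minus strand): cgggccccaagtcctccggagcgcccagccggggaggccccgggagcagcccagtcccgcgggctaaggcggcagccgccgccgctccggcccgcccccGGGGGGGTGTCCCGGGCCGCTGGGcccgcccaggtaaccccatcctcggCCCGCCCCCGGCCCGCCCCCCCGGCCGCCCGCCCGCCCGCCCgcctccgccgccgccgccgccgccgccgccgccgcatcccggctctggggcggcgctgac
WNT3A held 2 such stretches, WNT9A 1 and WNT4 2. The first WNT4 stretch matches only because its longest run of G counts as 2. The same rule was used for all promoters. Promoter sequences were matched for 34 of the 49 members. WNT7B, FZD6, FZD10, RSPO2 and SFRP1 were among those without a match. Of the 34, 24 (70.6%) held the motif, against 22.6% of all 27305 promoters of this length and 32.9% of the 12244 belonging to tested genes. The median GC content of the matched members was 71.4%, compared with 58.0% for all promoters and 65.2% for tested genes. A TCF/LEF-type word (CTTTG followed by A or T at each of the next positions, either strand) occurred in 1 of the 34, DKK1, in 12.1% of all promoters and in 7.45% of those of tested genes. These are matches of letters, chosen after the expression values were known, and no G4 folding was measured here for them.

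The 10 Frizzled receptors were all tested. In MUT, FZD1 and FZD9 rose and FZD6 and FZD8 fell. These are 20% in each direction, beside 11.3% higher and 10.1% lower of all genes tested. In SWP, FZD10 fell and no other receptor was called (10% lower, beside 2.98% of all genes). Of the 10 genes, 6 (FZD1, FZD2, FZD7, FZD8, FZD9 and FZD10) have no intron in the annotation. FZD8 was the highest in WT at 621 ± 27.8 normalized counts per kb, with FZD7 at 591 ± 21.6, and these spreads overlapped. FZD9 was the highest in MUT at 528 ± 27.2. FZD10 was the lowest in every group.

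FZD6, a receptor known from planar polarity of hair and skin, went down in MUT and up in SWP. Its values were 1379.7, 1465 and 1175 in WT, 642, 591 and 499 in MUT and 1905, 1854 and 1709 in SWP. No libraries of different groups overlapped. It fell to 43.1% of WT in MUT (log2 fold change -1.22, SE 0.11, adjusted p = 1.54e-05). In SWP the change of 0.45 passed the adjusted p (0.0279) but not the fold threshold, and reached 0.52 without WT replicate 2. The contrast of MUT against SWP was -1.66 (adjusted p = 1.19e-06). FZD6 lies on chromosome 8, where 20 of its 49 tested neighbors within 5 Mb were also called lower in MUT and their median was -0.41. BAALC-AS1, a lncRNA that overlaps FZD6 on the other strand, had means of 76.6 in WT, 29.0 in MUT and 84.1 in SWP, and the use of strand in counting is not stated.

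FZD9, a receptor gene that is lost in the Williams syndrome deletion, had 734, 557 and 674 in WT, 1163, 1275 and 1271 in MUT and 618, 597 and 688 in SWP. FZD1, a receptor for canonical ligands, had 1483, 1476 and 1407, 2231, 2233 and 2338 and 1321, 1351 and 1503 in the same order. For both, MUT stood clear of the other groups, which overlapped. The rise in MUT was 0.92 for FZD9 (SE 0.11, adjusted p = 8.80e-05) and 0.64 for FZD1 (SE 0.07, adjusted p = 6.84e-05) on the log2 scale. Against SWP, MUT was higher by 0.96 and 0.71 (adjusted p = 6.00e-05 and 2.96e-05). Their neighbors had medians of -0.00 and 0.05 in MUT.

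FZD8, a receptor for canonical ligands, gave 2607, 2545 and 2388 in WT, 1624, 1609 and 1784 in MUT and 2227, 2034 and 2401 in SWP. MUT lay below both other groups, and SWP overlapped WT. The log2 fold change in MUT was -0.59 (SE 0.08, adjusted p = 0.000236), and the median of its 41 tested neighbors was -0.31. FZD7, FZD2 and FZD4 passed the adjusted p in MUT with smaller shifts of -0.47, -0.34 and -0.34.

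FZD4, the receptor for norrin in retinal vessels, was called in the direct contrast of the edited lines. Its normalized counts were 1235, 1485 and 1312 in WT, 1031, 1105 and 1033 in MUT and 1520.3, 1841 and 1755 in SWP. MUT lay below WT and SWP above it, with no overlap. MUT against SWP gave -0.69 (SE 0.10, adjusted p = 0.000239). PRSS23, which overlaps FZD4 on the other strand, had means of 690 in WT, 1357.5 in MUT and 1047 in SWP.

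FZD10, a receptor with restricted expression in adult tissue, was the receptor with the largest change. The values were 95.3, 89.8 and 117 in WT, 56.4, 87.5 and 86.7 in MUT and 13.7, 8.91 and 10.4 in SWP. SWP libraries lay far below all others, and MUT below WT. SWP held 10.9% of the WT mean (log2 fold change -3.09, SE 0.24, adjusted p = 1.29e-05), while MUT had -0.41 (adjusted p = 0.199). MUT against SWP was 2.69 (adjusted p = 8.14e-06). On the chromosome 12 arm that carries FZD10, 12 of its 49 tested neighbors were also called lower in SWP and 0 higher, with a median of -0.42. FZD3 and FZD5 had log2 fold changes between -0.03 and 0.08 in the 3 contrasts, with adjusted p from 0.525 to 0.955.

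**Figure D3:**
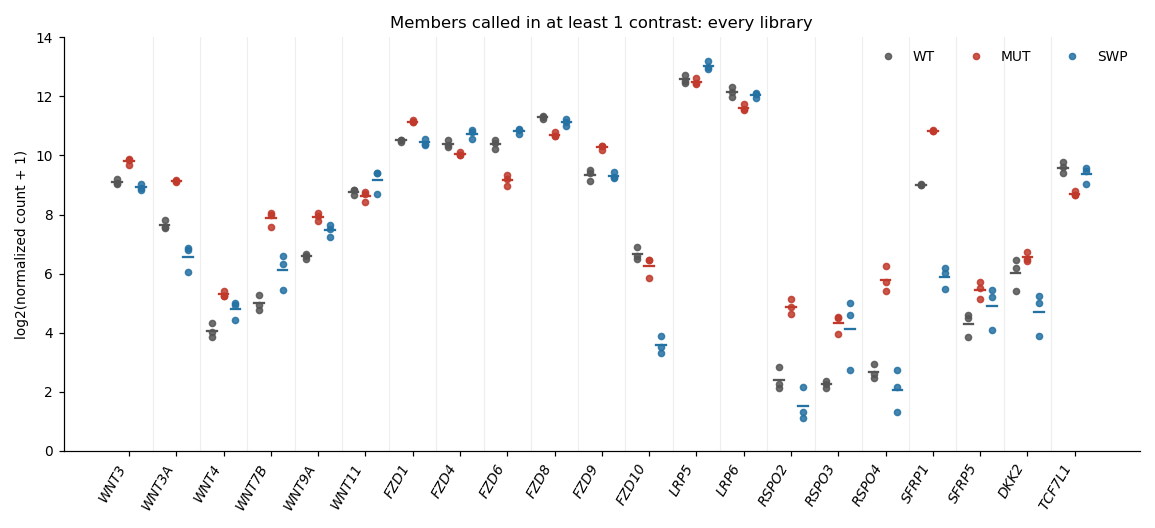
Log2(normalized count + 1) in every library for the 21 members called in at least 1 contrast, ordered by role (gray WT, red MUT, blue SWP; short lines are means of 3 libraries). SFRP1 separates all groups, RSPO2 and RSPO4 stand apart in MUT, and FZD10 stands apart in SWP.

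The co-receptor LRP6 fell in MUT, and LRP5 was called only in the direct contrast of the edited lines. LRP5 and LRP6 are single-pass receptors that dock Axin when phosphorylated. LRP6 had 4546, 5071 and 4014 in WT, 3037, 2984 and 3382 in MUT and 4343, 3967 and 4401 in SWP, so that MUT lay below the other groups. The fall in MUT was -0.53 on the log2 scale (SE 0.09, adjusted p = 0.000986), close to the fold threshold. It was -0.46 with equal totals, -0.45 without WT replicate 2 and -0.50 without MUT replicate 2, which ended the call. LRP5 had 5927, 6783 and 5621 in WT, 5604, 5449.8 and 6272 in MUT and 7729, 8121 and 9298 in SWP. Each SWP library exceeded every other library. LRP5 was called in MUT against SWP (-0.54, SE 0.09, adjusted p = 0.00107), but not without MUT replicate 2 (-0.50) or SWP replicate 3 (-0.46). In SWP against WT it reached 0.46 (adjusted p = 0.0106), and it was called at 0.51 with equal totals, 0.503 with edgeR or DESeq2, 0.53 without WT replicate 2 or 0.51 without SWP replicate 1. The 208 tested neighbors of LRP5 on chromosome 11 had a median of 0.30 in SWP, with 24 called higher and 4 lower.

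The R-spondins were nearly silent in WT cells, and those that could be tested rose in MUT. All 3 tested genes rose there, and RSPO3 also rose in SWP. These 3 reached the minimum mean only through the groups where they were higher. An R-spondin that stayed at its WT level in every group would not have been tested, so this count is no evidence about the family. RSPO4, known for nail development, had 5.13, 4.49 and 6.74 in WT, 41.6, 51.5 and 75.0 in MUT and 5.73, 1.49 and 3.46 in SWP. MUT libraries stood above all others, and the low groups overlapped. From the reads themselves (175 in MUT and 16 in WT), the ratio was 10.1, with an exact 95% interval from counting error alone of 6.06 to 18.1. The limma log2 fold change was 3.12 (SE 0.39, adjusted p = 0.000119), and 3.72 against SWP (adjusted p = 3.04e-05).

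RSPO2, a regulator of limb and lung development, showed the same order with 6.15, 3.37 and 3.85 in WT, 24.0, 28.2 and 34.1 in MUT and 3.44, 1.49 and 1.153 in SWP. MUT again stood clear of overlapping WT and SWP libraries. Reads numbered 90 in MUT, 13 in WT and 6 in SWP, for a ratio of 6.41 against WT (95% counting interval 3.57 to 12.5) and 14.8 against SWP (6.52 to 41.3). The fitted values were 2.47 and 3.36 (adjusted p = 0.000416 and 4.50e-05). RSPO2 lies within 5 Mb of FZD6 on chromosome 8, and its 24 tested neighbors had a median of -0.44 in MUT, opposite to the gene itself.

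RSPO3, an R-spondin of placental and vascular development, had 4.10, 3.37 and 3.85 in WT, 22.2, 21.4 and 14.6 in MUT and 5.73, 31.2 and 23.1 in SWP. Both edited lines lay above WT, with SWP replicate 1 near it. The rise was 2.08 in MUT (adjusted p = 0.00678) and 1.86 in SWP (adjusted p = 0.0361), and the lines did not differ detectably (0.21, SE 0.50, adjusted p = 0.768). The SWP call was lost without any 1 WT library (adjusted p = 0.0536, 0.0952 and 0.0962 without replicates 1, 2 and 3), without SWP replicate 2 (0.126) or without SWP replicate 3 (0.125). It was also lost with a pseudocount of 10 (1.01, adjusted p = 0.0546), with no filter on low values (0.0553) and in a fit of only SWP and WT (0.0964). RSPO1 was not tested, with 2.05, 0 and 0 in WT, 6.47, 4.86 and 1.95 in MUT and 0, 0.743 and 0 in SWP. Summed over the 4 genes, R-spondin transcripts were at 3.99 ± 0.850 per kb in WT, 32.3 ± 5.81 in MUT and 5.87 ± 1.72 in SWP (exact two-sided permutation p = 0.1 for MUT against WT, the smallest possible). Even in MUT this sum was below the level of WNT9A alone, at 60.4 ± 6.02 per kb. At such low values the log2(normalized count + 1) scale understates fold changes.

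The 250 bases upstream of RSPO4 and RSPO3 are given in the same form for comparison with the ligands. Capitals mark the G4 motif and, in RSPO4, also the E-box word CACGTG, which MYC and its partner MAX can bind.
RSPO4 (chr20:1002312-1002561, minus strand): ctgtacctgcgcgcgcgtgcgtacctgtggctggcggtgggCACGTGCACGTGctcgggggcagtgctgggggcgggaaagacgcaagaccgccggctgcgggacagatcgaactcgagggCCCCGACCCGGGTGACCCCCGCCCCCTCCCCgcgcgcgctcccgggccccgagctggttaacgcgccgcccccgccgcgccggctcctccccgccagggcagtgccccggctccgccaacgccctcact
RSPO3 (chr6:127118421-127118670, plus strand): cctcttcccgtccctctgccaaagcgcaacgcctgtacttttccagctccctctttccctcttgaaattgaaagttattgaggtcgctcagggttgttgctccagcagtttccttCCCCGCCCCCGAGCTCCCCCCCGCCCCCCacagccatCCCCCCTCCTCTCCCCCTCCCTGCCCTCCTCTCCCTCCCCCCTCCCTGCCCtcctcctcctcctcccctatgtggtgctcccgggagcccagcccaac
RSPO4 held 1 stretch with the G4 motif and RSPO3 held 2. Of the 34 matched members, RSPO4 alone held CACGTG (either strand), a word found in 6.49% of all promoters and 8.77% of those of tested genes. A match of letters does not show that a factor was bound.

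SFRP1 showed the largest change of the tested members in SWP against WT and in MUT against SWP, and the fifth largest in MUT against WT. It encodes a secreted antagonist that is silenced by methylation in many tumors. Normalized counts were 515, 521 and 512 in WT, 1797, 1858 and 1809 in MUT and 43.5, 72.1 and 64.6 in SWP. The 3 groups were far apart, with a spread within WT of only 4.48 (SD). SFRP1 rose 3.53-fold in MUT (log2 fold change 1.82, SE 0.16, adjusted p = 9.59e-06) and fell to 11.6% of WT in SWP (-3.11, SE 0.16, adjusted p = 6.21e-07). The mean in MUT was 30.3 times that in SWP (4.93, SE 0.16, adjusted p = 6.82e-09). Its 57 tested neighbors had medians of 0.13 in MUT and -0.05 in SWP. SFRP1 made up 84.8% of the summed SFRP level per kb in WT and 92.5% in MUT, whereas in SWP the highest member was SFRP5, at 41.0%.

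SFRP5, an antagonist known from fat tissue and foregut, had 13.3, 21.3 and 23.1 in WT, 44.4, 34.0 and 51.6 in MUT and 16.04, 35.7 and 42.7 in SWP. MUT and WT did not overlap, and SWP overlapped both. The rise in MUT (1.146, SE 0.35, adjusted p = 0.0250) lost its call without WT replicate 1 (adjusted p = 0.0715), MUT replicate 1 (0.0710) or MUT replicate 3 (0.0909). In SWP it was 0.61 (adjusted p = 0.341), and 1.02 and called without SWP replicate 1. SFRP4 was not called in any contrast, apart from a lower level in MUT than in SWP without SWP replicate 1 (-0.87), and SFRP2 had at most 5.61 normalized counts in a library.

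None of the 3 tested Dickkopf genes was called in MUT against WT, beside 11.3% called higher and 10.1% lower of all genes. DKK2, an LRP5/6 ligand that can block or mimic Wnt, had 42.03, 71.8 and 86.6 in WT, 86.0, 106 and 88.6 in MUT and 13.7, 31.2 and 36.9 in SWP. SWP lay below both other groups, which overlapped. It fell in SWP (-1.31, SE 0.35, adjusted p = 0.0375) and was higher in MUT than in SWP (1.84, adjusted p = 0.00181). The fall in SWP was not called without WT replicate 2 (adjusted p = 0.110), WT replicate 3 (0.147), SWP replicate 1 (0.0583) or SWP replicate 2 (0.0554). The call was also lost with equal totals (0.0533), with no filter on low values (0.0525) and in a fit of only SWP and WT (0.103). DKK1, the classical LRP6 inhibitor and a beta-catenin target, ranged from 90.0 to 118 over the group means and was not called. DKK3, a divergent member, had means of 437 ± 80.2 in WT, 491 ± 54.1 in MUT and 351 ± 127 in SWP. For MUT against SWP its adjusted p was 0.102 (0.55) and became 0.00938 with the replicate number as a block. DKK4 had reads in 1 MUT library only, 2 in number.

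AXIN1, the scaffold of the destruction complex, had means of 5258 ± 287, 5453 ± 259 and 5374 ± 230.0 in WT, MUT and SWP, and its log2 fold changes lay between 0.02 and 0.05. AXIN2, which beta-catenin induces in many tissues and which is widely read as a pathway reporter, had 1253, 1226 and 1259 in WT, 976, 1156 and 1054 in MUT and 1027, 1185 and 1236 in SWP. The MUT libraries lay below WT, but the difference of -0.23 (SE 0.09) missed the threshold with an adjusted p of 0.0682, and SWP gave -0.12 (adjusted p = 0.487).

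Among the TCF/LEF factors only TCF7L1 was called, 1 of 4 tested (25% lower in MUT, beside 10.1% of all genes). TCF7L1, the member known mainly as a repressor, had 672, 871 and 773 in WT, 400.3, 448 and 402 in MUT and 521, 702 and 769 in SWP. MUT lay below both other groups, which overlapped. The fall was -0.88 against WT (SE 0.15, adjusted p = 0.000772) and -0.65 against SWP (adjusted p = 0.00474), while its 55 tested neighbors had a median of 0.06 in MUT against WT. TCF7L2, the main TCF of intestinal epithelium, shifted by -0.27 in MUT (adjusted p = 0.0191), and TCF7, known from T cells, by -0.32 in SWP (adjusted p = 0.0440), both within the fold threshold. LEF1, at 533 ± 37.0 per kb the most abundant of the 4 in WT, had -0.08 in MUT and -0.02 in SWP (adjusted p = 0.413 and 0.912).

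**Figure D4:**
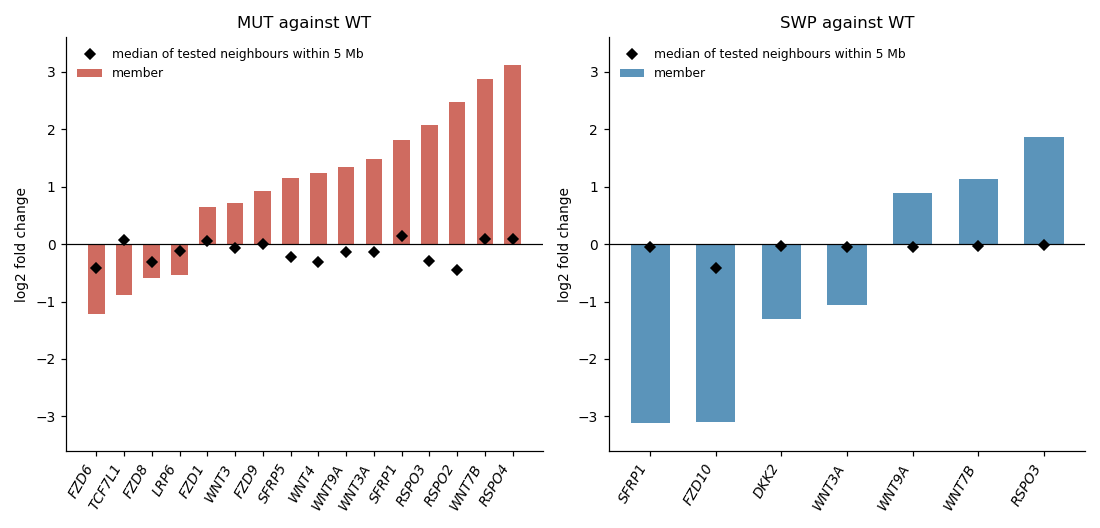
Log2 fold change of each called member (bars) and the median over the other tested genes within 5 Mb on either side (diamonds), for MUT against WT on the left and SWP against WT on the right. Among members that rise in MUT, RSPO2, RSPO3 and WNT4 have the lowest neighbor medians. Those of SFRP5, WNT3A, WNT9A, WNT3 and FZD9 are also negative, and those of the other risers are positive. FZD6, FZD8 and LRP6 fall where the neighbors have negative medians, and TCF7L1 falls where the median is positive. In SWP, the neighbors of FZD10 have a median of -0.42.

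Other genes of the pathway were taken from 7 lists written by role, with 78 different genes, of which 67 were tested. In MUT, 4 rose and 7 fell, in SWP 3 rose and 0 fell, and the direct contrast had 4 higher and 9 lower in MUT. These are 5.97% and 10.4% of those tested in MUT, beside the 11.3% and 10.1% of all genes given above. In SWP the shares were 4.48% and 0%, beside 2.15% and 2.98% of all genes. In MUT against SWP they were 5.97% higher and 13.4% lower, beside 12.3% and 8.31%. No nuclear cofactor (0 of 13 tested) was called in any contrast.

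In the list of secretion and processing genes, NOTUM, an extracellular enzyme that removes the lipid from Wnt ligands, rose in MUT (means 71.9 in WT, 197 in MUT and 98.0 in SWP, log2 fold change 1.496, adjusted p = 0.00361). WLS, the carrier that brings Wnt proteins to the cell surface, was lower in each MUT library than in any other, at -0.48 against WT (adjusted p = 0.000986), within the fold threshold. Of the 11 co-receptor and receptor turnover genes, the receptor kinases ROR1 and ROR2 fell in MUT by 0.61 and 0.87 (adjusted p = 0.000936 and 0.0356). In that list 0% rose and 18.2% fell in MUT, beside 11.3% and 10.1% of all genes. RNF43, a ligase that removes Frizzled from the surface and that R-spondins counter, rose in SWP from 341 ± 21.5 to 919 ± 93.7 (1.42, adjusted p = 9.62e-06). Among the other secreted or surface modulators, SOSTDC1, a BMP and Wnt antagonist, fell in MUT (-1.59, adjusted p = 0.000385). GPC3, a surface proteoglycan, rose in SWP (0.97, adjusted p = 1.79e-05).

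In the cytoplasmic list, APC2 rose in MUT from 47.7 ± 11.2 to 160.4 ± 3.64 (1.76, adjusted p = 0.000415). DVL1, which relays the signal from Frizzled, fell from 10736 ± 569 to 5588 ± 97.6 (-0.94, adjusted p = 3.77e-06), and CTNNBIP1, an inhibitor of beta-catenin binding to TCF factors, fell by 0.74 (adjusted p = 0.00621). The remaining 16 tested genes of that list were not called in MUT. In the planar cell polarity list, CELSR3 rose in MUT (0.96, adjusted p = 3.19e-05), 1 of 11 tested (9.09%, beside 11.3% of all genes).

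Genes known to respond to beta-catenin in other tissues did not move in 1 direction. Of 10 tested in MUT, CCND1 and NOTUM rose, and MYC and TNFRSF19 fell. That is 20% in each direction, beside 11.3% higher and 10.1% lower among all genes. CCND1, the cell cycle regulator cyclin D1, had 2261, 1766 and 1648 in WT, 8134, 7560.2 and 8154 in MUT and 2698, 2481 and 3194 in SWP. It rose by 2.08 in MUT and 0.57 in SWP on the log2 scale (adjusted p = 7.67e-07 and 0.0127), with MUT above both other groups. TNFRSF19 changed by -0.996 in MUT (adjusted p = 0.000292). In SWP, CCND1 and RNF43 rose and 0 of 10 fell (20% and 0%, beside 2.15% and 2.98% of all genes). MYC counts in this list and is also the edited gene.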

How the data were processed

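RNA-seq of WT, MUT and SWP cells (9 of the 213 samples listed) was analyzed, and the other assays of the study were not analysed here. The authors made poly(A)-selected, strand-specific libraries, aligned reads to hg38 with bwa mem 0.7.17, an aligner without spliced alignment, then removed duplicates and counted reads per GENCODE gene. The counting tool and its use of strand are not given in the sources used here. An annotated gene overlaps 22 of the 49 members on the other strand. Besides FZD6 and FZD4, these include TCF7L1 (SNRPEP11, mean 817 in WT) and RSPO2 (NRBF2P4, mean 119 in WT). Whether such genes share reads with the members was not tested. The deposited values are a non-negative signal per gene, for which the authors divided its read count by 1 DESeq2 size factor per library. Multiplied by the recovered factor, 100% of the values were whole reads within 0.01, and these reads were used for alternatives only. Groups came from the sample labels.

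Genes reaching a mean of 10 normalized counts were tested in limma 3.58.1 under R 4.3.3 (lmFit, then eBayes with trend), with all 9 libraries in one fit of log2(normalized count + 1) and Benjamini-Hochberg adjustment over 20884 genes. Called genes had both an adjusted p below 0.05 and an absolute log2 fold change above 0.5. Symbols and positions came from GENCODE release 44, which matched 57754 of 58336 identifiers. Exon length was the union of annotated exons. Promoter sequences came from RefSeq (GRCh38.p14), and 34 of 49 members matched. Protein sequences were not used here.

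Every member could be named. Members called in any contrast were given by library. From each pathway list, up to 3 called genes with the largest rise and up to 3 with the largest fall were named. The rule for members used no measured value, but members and lists were chosen with earlier results of these data known.

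Libraries of a group differed (chi-square per degree of freedom 8.32 to 55.6), so none repeated another. For WT and SWP, deviations of same-numbered libraries from their group means correlated at 0.555, 0.403 and 0.102. For MUT and SWP they correlated at 0.333, 0.241 and 0.232. Replicate numbers were treated as possible pairs there, from the data and not from the labels. Correlations between differently numbered libraries were not computed, so pairing is not shown. The main fit used the group only, so its p-values use no pairing in any contrast. A fit with the replicate number as a block was run as an alternative. Alternatives were pseudocounts of 0.1 and 10, no filter, a minimum mean of 50, equal totals, edgeR 4.0.16 and DESeq2 1.42.0 on the recovered reads, fits of the 2 groups compared, a replicate block, other fold thresholds, and leaving out each library. On simulated data for MUT against WT over 20884 genes, limma called 73 of 100 genes changed 2-fold, 91 of 100 changed 4-fold and 5 others. In that simulation only 200 genes changed, up or down at random, and libraries were drawn independently with the spread of WT. The real data have more changed genes and correlated libraries, so these figures do not give the error rate of the calls. Counting intervals cover counting error only. Figures were drawn with matplotlib 3.10.9.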

Additional observations from a re-analysis of the deposited data

Results flagged for a closer look

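The 15 members called in MUT against SWP are listed for a closer look, because this contrast tests whether the changes of the edited lines against WT differ. For SFRP1 and WNT3A the lines were called in opposite directions against WT, and MUT against SWP was 4.93 and 2.55 on the log2 scale. Members that rose in MUT and were not called in SWP against WT were RSPO4 (3.72), RSPO2 (3.36), FZD9 (0.96), WNT3 (0.89) and FZD1 (0.71). WNT7B (1.75) rose in both lines. FZD10 (2.69) and DKK2 (1.84) fell in SWP and were not called in MUT against WT. FZD6 (-1.66) and TCF7L1 (-0.65) fell in MUT. FZD4 (-0.69), WNT11 (-0.54) and LRP5 (-0.54) were called in neither line against WT.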

How the results depend on the processing

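Of 16 member calls in MUT against WT, 14 held in every alternative fit that tested the member, with the call thresholds unchanged. So did 4 of 7 in SWP against WT and 13 of 15 in MUT against SWP, and no call reversed. Other fold thresholds are not part of these counts. In MUT against WT, a minimum mean of 50 left 7 members higher instead of 12, since fewer were tested. A log2 fold change beyond 1 left 9 higher. Members lower were 4, 10 with no fold threshold and 1 at a log2 fold change beyond 1. In SWP against WT, 3 members were higher, 1 in a fit of only these 2 groups and 6 with no fold threshold. In MUT against SWP, 5 were lower, 10 with no fold threshold and 1 beyond 1. Other pathway genes called numbered 11, 3 and 13 in the 3 contrasts, and 5, 1 and 6 beyond 1, with 27 and 25 in the first and last with no fold threshold. Without 1 library, members higher ranged from 11 to 12 and lower from 3 to 4 in MUT against WT, from 1 to 7 and from 3 to 4 in SWP against WT, and from 10 to 11 and from 3 to 8 in MUT against SWP. Other pathway genes ranged from 10 to 13, from 2 to 4 and from 12 to 14. Beyond thresholds and left-out libraries, the cause of these moves was not tested.

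With the replicate number as a block, members higher and lower were 12 and 5 in MUT against WT, 4 and 4 in SWP against WT, and 11 and 5 in MUT against SWP, and other pathway genes called were 12, 4 and 13. For MUT and WT the same-numbered libraries correlated at 0.328, 0.146 and 0.0490. Whether replicate numbers pair libraries in any contrast is not settled by such values. The block added calls for WNT6 in MUT against WT (adjusted p = 0.0491), WNT4 in SWP against WT and DKK3 in MUT against SWP, and changed no other member's call. The limits are 3 libraries per group, clones that may differ beyond the edit, and low counts of the R-spondins.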
